A study of Mus musculus with 4 samples.

Results

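The semaphorins, their plexin receptors and the neuropilin co-receptors form a family of 31 genes that was followed across 2 macrophage subsets of mouse ear dermis. Members were chosen by gene symbol alone: 20 semaphorins of classes 3 to 7, 9 plexins and 2 neuropilins, all 31 of which were found among 22180 named genes. Levels come from 4 expression arrays, 2 for the CX3CR1low and 2 for the CX3CR1bright subset. Each array carried RNA from sorted cells of 3 to 6 pooled mice, with 2 independent litters behind each subset. All animals were untreated adult C57Bl/6 mice of the genotype Cx3cr1+/gfp, so that in each subset alike 1 of the Cx3cr1 alleles carries GFP instead of the receptor for fractalkine. Mice were kept under SPF conditions without ear clipping, and the labels name no difference between the groups apart from the CX3CR1 level. Whether a CX3CR1low and a CX3CR1bright sample came from the same mice is not given in the sources used here, nor are the other markers of the sort.

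Semaphorins are secreted or membrane-bound guidance proteins that share a sema domain. They bind plexins, whose intracellular part switches off small GTPases of the Ras and Rap type, so that integrin adhesion and the actin skeleton of the responding cell change. Secreted class 3 semaphorins mostly need a neuropilin beside the plexin, while classes 4 to 7 are held at the membrane and bind plexins directly. In the immune system the family is known for steering the migration of dendritic cells and macrophages and for contacts between T cells and antigen-presenting cells, and neuropilins also bind growth factors of the VEGF family.

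Values are RMA levels on the log2 scale, a background-corrected and quantile-normalized probe summary. A value compares 1 gene between arrays; it does not rank genes against each other. The array medians were 3.65 to 3.68, and a level at or below them can be background. In the check of the sort, Cx3cr1 stood at 3.63 and 3.60 on the CX3CR1low arrays and at 8.42 and 8.44 on the CX3CR1bright arrays. All 12 macrophage markers, among them Csf1r, Adgre1 and Mertk, lay above the array median on all 4 arrays, and their summed linear level was 24650 and 25490 in CX3CR1low and 22500 and 21820 in CX3CR1bright cells. Markers of other skin cells were detected too, and their values stand beside genes they move with. CX3CR1bright replicate 2 stood apart in its keratinocyte markers, with a summed linear level of 4250 against 944 to 1811 on the other arrays.

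Of the 11 plexins and neuropilins 10 lay above the array median on all 4 arrays, against 10 of the 20 semaphorins; among all 22180 genes the share was 49.5%. With the 75th percentile (5.44 to 5.52) as the line, 7 receptors and 5 semaphorins lay above it on every array, beside 27.7% of all genes. The 7 receptors were Nrp1, Nrp2, Plxna1, Plxna2, Plxnb2, Plxnc1 and Plxnd1, and the 5 ligands were Sema4a, Sema4b, Sema6b, Sema6d and Sema7a. None of the 7 secreted class 3 genes reached it on all arrays. Another 8 members lay above the median on 1 to 3 arrays, namely Plxnb1, Sema3b, Sema3d, Sema3e, Sema3g, Sema5a, Sema5b and Sema6c. Sema3a, Sema4f and Sema4g lay below it on every array, with levels of 2.65 to 3.66, and are not distinguished from background here.

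**Figure D1:**
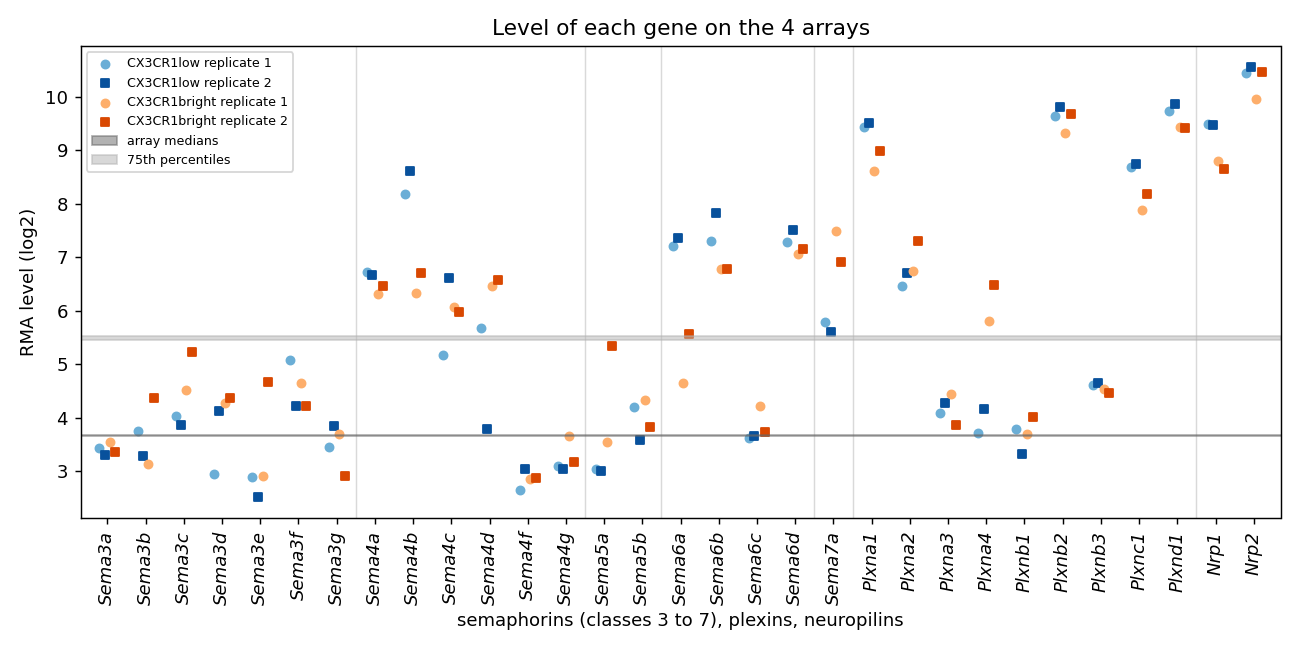
RMA level (log2) of the 31 genes on each of the 4 arrays, with grey bands at the array medians and the 75th percentiles. Most receptors lie above the upper band on all arrays, the class 3 semaphorins lie below it, with Sema3c and Sema3f above the lower band on all arrays, and the blue and orange points separate most for Sema4b, Sema6a, Sema7a and Plxna4.

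The question put to the family was which ligands and receptors differ between CX3CR1bright and CX3CR1low macrophages. Among tested members, the differences beyond 1 on the log2 scale were in Plxna4, Sema4d and Sema7a, which stood 2.21, 1.80 and 1.51 higher in CX3CR1bright cells, and in Sema6a and Sema4b, with differences of -2.19 and -1.88 (CX3CR1bright minus CX3CR1low throughout). Sema5a and Sema3e, too dim to be tested, differed by 1.42 and 1.08. The 2 neuropilins and the plexin genes Plxna1, Plxnb2, Plxnc1 and Plxnd1 had smaller differences of -0.76 to -0.22, with overlap for Nrp2 and Plxnb2. Plxna2, also above the 75th percentile on all arrays, differed by 0.43. In bulk samples such as these, more cells of a type and more RNA per cell cannot be told apart. Among 26 members with at least 2 arrays above the median, the minimum for a test, 0 passed an adjusted p of 0.05 in limma, where 18 of 13133 tested genes (0.137%) did. The smallest adjusted p in the family was 0.0761 (limma), that of Sema4b.

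At an unadjusted p under 0.05 (limma) 10 of the 26 members differed (38.5%), beside 18.8% of all tested genes. Of these, 4 were higher in CX3CR1bright cells, where the background is 7.03%, and 6 were lower, where it is 11.8%. A difference of at least 2-fold without any overlap of the arrays was found for 5 members (19.2%), beside 5.83% of all tested genes. They were Plxna4, Sema4d and Sema7a on the higher side (background 2.94%) and Sema4b and Sema6a on the lower side (2.89%). Groups without overlap were found for 17 members (65.4%), beside 50.4% of all tested genes. Among them was Sema6c, which passed the filter only through its CX3CR1bright arrays, so the filter favoured its lack of overlap. Without CX3CR1bright replicate 2, the count at an unadjusted p under 0.05 (limma) was 7 and the 2-fold count 5, beside 16.6% and 6.43% of all tested genes. Without CX3CR1low replicate 1 they were 6 and 7, beside 11.1% and 7.79%. No test was made of these shares.

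Ligands went both ways, with 8 of 15 tested semaphorins positive and a median difference, CX3CR1bright minus CX3CR1low, of 0.13. Sema6c, counted as positive, passed the filter only through its CX3CR1bright arrays, so the filter favoured its sign. Receptors had 8 of 11 negative and a median of -0.22. Over all tested genes the median was -0.070 and 57.5% were negative. The counts of 8 ligands and 8 receptors did not move with quantile, median or cyclic loess scaling, but the receptor median did. It was -0.13 after quantile and -0.097 after cyclic loess scaling. Of all tested genes 51.2% and 48.2% were then negative. With a stricter filter, which dropped dim ligands, the ligand median turned sign to -0.30, with 6 of 8 negative. It was close to the receptor median of -0.33, with 7 of 8 negative. Over all genes tested with that filter the median was -0.10 and 61.2% were negative. Leaving out 1 array moved the ligand median from -0.12, without CX3CR1low replicate 2, to 0.19, without CX3CR1low replicate 1, while the receptor median stayed between -0.36 and -0.14. The difference between ligands and receptors was not tested.

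**Figure D2:**
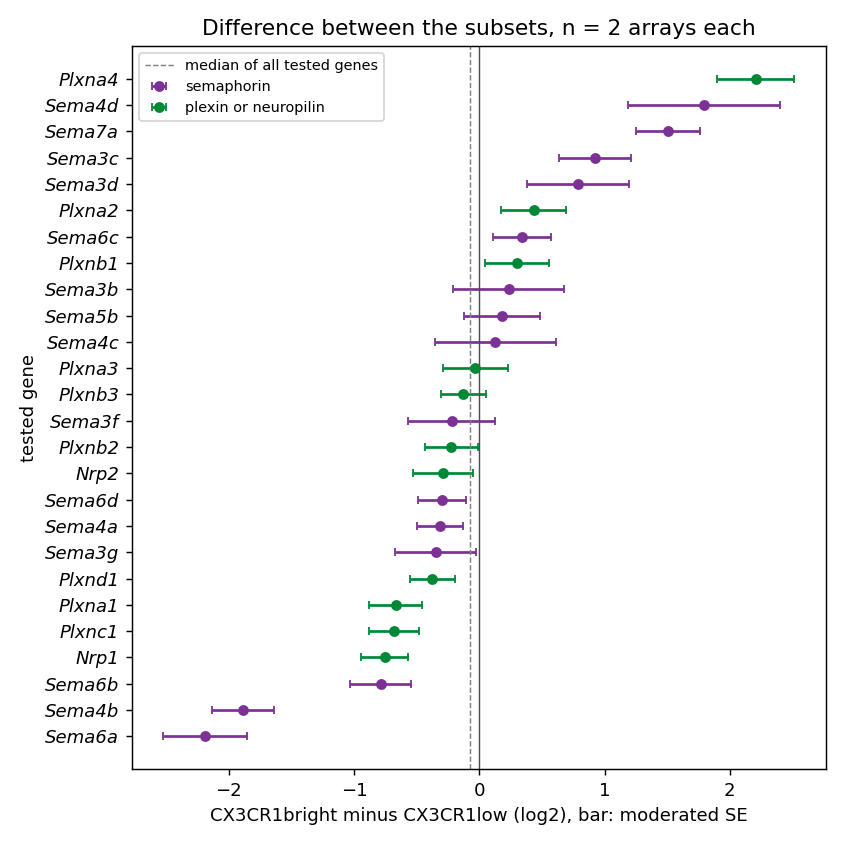
Difference between the subsets (log2, CX3CR1bright minus CX3CR1low) for the 26 tested genes, ordered by size, with the moderated SE as bars and 2 arrays per subset. Plxna4 at 2.21 is the one receptor beyond 1, while 2 ligands lie beyond 1 on the positive side and 2 on the negative side.

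Of the class 4 semaphorins, transmembrane proteins seen on many leukocytes, Sema4b was the one with the smallest p of the family. Its level was 8.19 and 8.61 on the CX3CR1low arrays and 6.33 and 6.70 on the CX3CR1bright arrays. Both CX3CR1low values lay above both CX3CR1bright values, and all 4 exceeded the 75th percentile. The difference was -1.88 ± 0.25 (SE, n = 2 per subset), 3.69-fold, with an adjusted p of 0.0761 (limma). Here and below, SE is the moderated SE of limma, which also draws on the spread of all tested genes. It passed with a stricter filter on dim rows (adjusted p = 0.0345, limma) and under an intensity trend (adjusted p = 0.0243, limma), and its adjusted p ran from 0.0243 to 0.429 over 13 alternatives.

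Sema4d, known as CD100 and abundant on T cells, stood at 5.67 and 3.79 in CX3CR1low and at 6.47 and 6.58 in CX3CR1bright cells. The CX3CR1bright arrays lay close together, whereas the CX3CR1low arrays were 1.88 apart and the lower one was near background. The difference was 1.80 ± 0.61 (SE, n = 2 per subset) with an adjusted p of 0.213 (limma). It was 0.86 without CX3CR1low replicate 2 and 2.74 without CX3CR1low replicate 1. The 6 measured T cell markers had summed linear levels of 429 and 387 on the CX3CR1low arrays and of 1146 and 1009 on the CX3CR1bright arrays, with 5 or 6 of them above the median. Il7r, which other leukocytes also express, made up most of that sum, at 8.32 and 8.19 against 9.81 and 9.81. The receptor chain gene Cd3g stood at 4.83 and 4.64 against 6.88 and 5.43, while Cd3e, Cd2 and Thy1 differed by 0.25, 0.43 and 0.11. The median of the list lay 1.16 above the CX3CR1low mean on CX3CR1bright replicate 1 and 0.067 above it on replicate 2. The part of such cells in the Sema4d difference was not tested.

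The other class 4 genes differed less. Sema4a, which acts on T cells and on vessels, stood at 6.73 and 6.67 in CX3CR1low and at 6.31 and 6.47 in CX3CR1bright cells, a difference of -0.31 ± 0.19 (SE, n = 2 per subset; limma, adjusted p = 0.430). The nearest values of the groups were 0.21 apart. Sema4c, a ligand of plexin-B2, stood at 5.17 and 6.62 in CX3CR1low and at 6.06 and 5.98 in CX3CR1bright cells. The CX3CR1low arrays enclosed the others, and the difference of 0.13 became -0.60 without CX3CR1low replicate 1. Sema4f and Sema4g were too dim to be tested.

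Class 6 semaphorins are transmembrane ligands of the class A plexins and can also act as receptors. Sema6a stood at 7.22 and 7.36 on the CX3CR1low arrays and at 4.65 and 5.56 on the CX3CR1bright arrays. Its CX3CR1low values lay well above the 75th percentile, and CX3CR1bright replicate 1 lay below it. The difference was -2.19 ± 0.33 (SE, n = 2 per subset), 4.55-fold, with an adjusted p of 0.0845 (limma). It passed with a stricter filter (adjusted p = 0.0433, limma) and under an intensity trend (adjusted p = 0.0372, limma), out of a range of 0.0372 to 0.445 over 13 alternatives. Its size was -1.73 without CX3CR1bright replicate 1 and -2.64 without CX3CR1bright replicate 2.

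Sema6b, a ligand of plexin-A4, shared that direction at a smaller size. It stood at 7.30 and 7.83 in CX3CR1low and at 6.78 and 6.77 in CX3CR1bright cells, with no overlap. The difference was -0.79 ± 0.24 (SE, n = 2 per subset; limma, adjusted p = 0.189). Sema6d, which binds plexin-A1, stood at 7.29 and 7.52 in CX3CR1low and at 7.06 and 7.15 in CX3CR1bright cells, a difference of -0.30 ± 0.19 (SE, n = 2 per subset; limma, adjusted p = 0.475). The 6 mast cell markers, 5 or 6 of them above the median, had the direction of Sema4b, Sema6a and Sema6b, with summed linear levels of 1628 and 1729 in CX3CR1low and of 1370 and 1325 in CX3CR1bright cells. Tpsb2, a mast cell tryptase with the largest difference of the tested ones, stood at 7.77 and 7.86 against 7.19 and 6.74. Cma1, Mcpt4, Cpa3 and Kit differed by -0.59, -0.26, -0.22 and -0.095, with overlap for Mcpt4 and Kit. The part of mast cells in the semaphorin and Nrp1 differences was not tested. Sema6c lay at 3.61 and 3.65 in CX3CR1low and at 4.22 and 3.73 in CX3CR1bright cells, near the array medians throughout.

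Sema4b and Sema6b both had the higher mean in CX3CR1low cells, and the 250 bases before their outermost annotated starts are shown because these windows lie wholly outside the genes. They are RefSeq sequences of GRCm38.p6, at chr7:80186620-80186869 on the plus strand for Sema4b and chr17:56140344-56140593 on the minus strand for Sema6b. Capitals mark GC boxes, the binding letters of Sp1-type factors (GGGCGG on either strand).
Sema4b: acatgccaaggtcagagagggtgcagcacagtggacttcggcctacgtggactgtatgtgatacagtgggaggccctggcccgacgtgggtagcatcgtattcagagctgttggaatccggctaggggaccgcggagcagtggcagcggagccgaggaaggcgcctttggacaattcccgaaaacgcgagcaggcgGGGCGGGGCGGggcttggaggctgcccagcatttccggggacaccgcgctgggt
Sema6b: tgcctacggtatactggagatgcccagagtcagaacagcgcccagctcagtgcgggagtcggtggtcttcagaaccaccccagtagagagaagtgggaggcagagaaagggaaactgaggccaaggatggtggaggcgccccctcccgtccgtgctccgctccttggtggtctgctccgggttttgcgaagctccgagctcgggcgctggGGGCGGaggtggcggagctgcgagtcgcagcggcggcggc
The Sema4b window holds 2 overlapping GC boxes and 20 CpG dinucleotides at a GC content of 64.4%, and the Sema6b window 1 GC box and 20 CpG dinucleotides at 66.0%. Entries were listed for 26 members with 37 windows, and for Plxna1, Plxna4, Sema3b, Sema3f and Sema6a none was listed. A GC box was found in 27 of the 37 windows and in 32.7% of the 32851 windows of all genes, where the median GC content was 64.0% and 52.4%. An AP-1 motif (TGANTCA, both strands) was in 3 member windows, beside 6.75% of all windows, an E-box (CACGTG) in 2, beside 6.02%, and the PU.1 core GAGGAAGT in 0, beside 2.44%. These are matches of letters in a window, not binding sites.

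Sema7a, the GPI-anchored member that binds plexin-C1 and beta1 integrins, had the smallest p among the ligands with a positive difference. It stood at 5.79 and 5.61 on the CX3CR1low arrays and at 7.49 and 6.92 on the CX3CR1bright arrays, all above the 75th percentile. The groups were 1.13 apart at their nearest values, which is wider than the gap within either subset. The difference was 1.51 ± 0.26 (SE, n = 2 per subset), 2.84-fold, with an adjusted p of 0.0931 (limma). It passed with a stricter filter (adjusted p = 0.0476, limma) and under an intensity trend (adjusted p = 0.0451, limma), and the range over 13 alternatives was 0.0451 to 0.490. The summed linear level of 9 measured Langerhans or dendritic cell markers moved the same way, at 218 and 238 in CX3CR1low and 653 and 795 in CX3CR1bright cells. Of these markers 7 to 9 lay above the median. Cd207, Ccr7, Flt3, Dpp4 and Zbtb46 differed by 2.24, 2.22, 2.13, 1.05 and 0.74, without overlap. Epcam and Cd24a stood at 4.53 and 4.66 on CX3CR1bright replicate 1 and at 6.73 and 5.77 on replicate 2. Itgae and Xcr1 differed by 0.52 and -0.098, with overlap. Keratinocyte, fibroblast and T cell sums were also higher on both CX3CR1bright arrays. The part of any of these cells in the Sema7a difference was not tested.

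Among the secreted class 3 genes, Sema3c, a ligand of both neuropilins, had the smallest p. It stood at 4.02 and 3.87 in CX3CR1low and at 4.51 and 5.23 in CX3CR1bright cells, low levels without overlap. The difference was 0.93 ± 0.29 (SE, n = 2 per subset; limma, adjusted p = 0.190), and 0.57 without CX3CR1bright replicate 2. Sema3d differed by 0.79 ± 0.41 (SE, n = 2 per subset; limma, adjusted p = 0.370), with 1 CX3CR1low array at 2.94 and the other 3 arrays at 4.13 to 4.37.

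CX3CR1bright replicate 2 stood apart from the other arrays for several dim ligands. Sema3e, a ligand of plexin-D1, was at 4.66 there and at 2.52 to 2.91 on the other 3 arrays. Sema5a, a transmembrane semaphorin with thrombospondin repeats, was at 5.34 there and at 3.01 to 3.54 elsewhere. Because 1 array alone lay above the median, neither gene was tested. Sema3b was at 4.36 on that array and at 3.13 to 3.75 elsewhere, and its difference of 0.23 became -0.38 without it.

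Keratinocyte markers had their highest sum on the same array, while the sum of fibroblast markers, mostly Dcn, was highest on CX3CR1bright replicate 1. The 11 measured keratinocyte markers had summed linear levels of 1338 and 944 on the CX3CR1low arrays and of 1811 and 4250 on the CX3CR1bright arrays, with 9 to 11 of them above the median. Krt14, a keratin of basal keratinocytes, stood at 8.54 and 7.64 in CX3CR1low and at 8.60 and 10.58 in CX3CR1bright cells. Krt10 was not highest on that array, at 8.80 and 7.90 in CX3CR1low and at 9.47 and 8.40 in CX3CR1bright cells. The 10 fibroblast markers, all above the median on every array, summed to 1754 and 1297 in CX3CR1low and to 2995 and 2552 in CX3CR1bright cells. Dcn made up most of that sum, at 10.22 and 9.55 in CX3CR1low and at 10.97 and 10.49 in CX3CR1bright cells. Col1a2, Col3a1, Pdgfra, Dpt and Mfap5 were highest on CX3CR1bright replicate 2. Col1a1, Lum, Pdgfrb and Thy1 were highest on CX3CR1bright replicate 1, as was Dcn. The part of these cells in the class 3 and class 5 levels was not tested. For the remaining members of these classes, Sema3a, Sema3f, Sema3g and Sema5b, levels ran from 2.91 to 5.08 and the groups of the 3 that were tested overlapped.

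**Figure D3:**
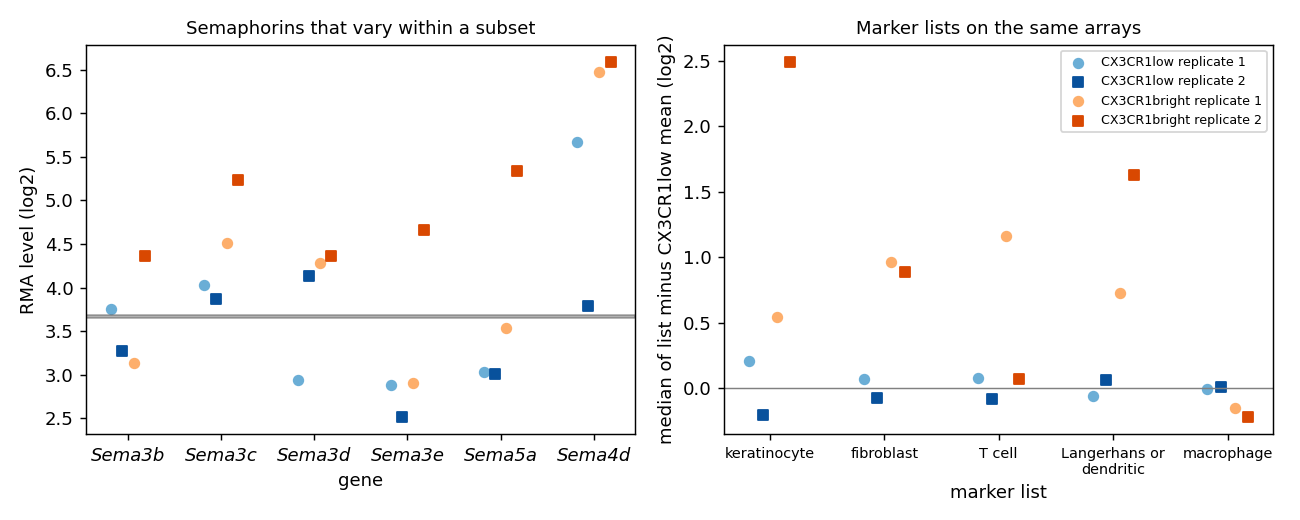
Left, RMA level (log2) of 6 semaphorins with unequal values within a subset, with the array medians as a grey band. Right, the median of each marker list minus the CX3CR1low mean (log2) on the same 4 arrays. CX3CR1bright replicate 2 has the highest Sema3b, Sema3c, Sema3e and Sema5a levels and keratinocyte markers 2.49 above the CX3CR1low mean.

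Class A plexins transmit signals of class 3 semaphorins, through neuropilins, and of class 6 semaphorins directly. Plxna4, the receptor of Sema6a and Sema6b and a partner of Nrp1 for Sema3a, stood at 3.72 and 4.16 in CX3CR1low and at 5.81 and 6.48 in CX3CR1bright cells. The CX3CR1low values lay near the array medians, so that the fold may be limited by background, and both CX3CR1bright values exceeded the 75th percentile. The difference was 2.21 ± 0.31 (SE, n = 2 per subset), 4.61-fold, with an adjusted p of 0.0794 (limma). It passed under an intensity trend (adjusted p = 0.0359, limma) and without CX3CR1bright replicate 1 (adjusted p = 0.0373, limma), with a range of 0.0359 to 0.410 over 12 alternatives. Without CX3CR1bright replicate 2 the difference was 1.87. On the same arrays the Langerhans or dendritic cell markers summed to 218 and 238 against 653 and 795, though Itgae and Xcr1 overlapped between the subsets. Keratinocyte, fibroblast and T cell sums were also higher on both CX3CR1bright arrays. The part of any of these cells in the Plxna4 difference was not tested.

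Plxna1, which pairs with Trem2 and Tyrobp in the response to Sema6d, had the opposite direction. Its level was 9.44 and 9.51 in CX3CR1low and 8.62 and 8.99 in CX3CR1bright cells, without overlap. The difference was -0.67 ± 0.21 (SE, n = 2 per subset; limma, adjusted p = 0.196). A dimmer row of the gene, at 3.51 to 4.65, also had a negative difference, -0.54. Plxna2, another class 6 receptor, stood at 6.47 and 6.71 in CX3CR1low and at 6.75 and 7.30 in CX3CR1bright cells, a difference of 0.43 ± 0.26 (SE, n = 2 per subset; limma, adjusted p = 0.430). The nearest values of its groups were closer to each other than the values within either subset. Plxna3 stayed between 3.86 and 4.44 on all arrays, and its groups overlapped.

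The class C plexin Plxnc1, the receptor of Sema7a, stood at 8.69 and 8.75 in CX3CR1low and at 7.89 and 8.19 in CX3CR1bright cells. The difference was -0.68 ± 0.20 (SE, n = 2 per subset; limma, adjusted p = 0.179). Among ligand and receptor pairs, Sema7a at 1.51 and Plxnc1 at -0.68 had opposite signs, as did Sema6a at -2.19 and Plxna4 at 2.21. The pair of Sema6d at -0.30 and Plxna1 at -0.67 had the same sign. No pattern over pairs was tested.

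Class B plexins bind class 4 semaphorins and couple to RhoA through PDZ-type exchange factors. Plxnb2 lay above the 75th percentile on all arrays, at 9.65 and 9.81 in CX3CR1low and at 9.33 and 9.68 in CX3CR1bright cells. Its groups overlapped, and the difference was -0.22 ± 0.21 (SE, n = 2 per subset; limma, adjusted p = 0.635). Plxnb1, the high-affinity receptor of Sema4d, lay at 3.31 to 4.02 on the 4 arrays, close to the array medians. Plxnb3, a receptor of Sema5a, lay at 4.45 to 4.64. Plxnd1, the Sema3e receptor best known from vessels, stood at 9.75 and 9.86 in CX3CR1low and at 9.44 and 9.42 in CX3CR1bright cells, a difference of -0.37 ± 0.18 (SE, n = 2 per subset; limma, adjusted p = 0.345).

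Of the neuropilins, Nrp1 had the closer replicates. It stood at 9.49 and 9.48 on the CX3CR1low arrays and at 8.81 and 8.65 on the CX3CR1bright arrays, with a gap between the subsets of more than the gap within either. The difference was -0.76 ± 0.18 (SE, n = 2 per subset; limma, adjusted p = 0.140), 1.69-fold, and lay between -0.83 and -0.62 over 13 alternatives. Nrp2 stood at 10.44 and 10.55 in CX3CR1low and at 9.96 and 10.46 in CX3CR1bright cells. Those groups overlapped, and the difference of -0.29 ± 0.24 (SE, n = 2 per subset; limma, adjusted p = 0.576) was -0.034 without CX3CR1bright replicate 1. Both neuropilins are also made by endothelial cells, whose 10 markers, 4 to 7 of them above the median, summed to 199 and 283 in CX3CR1low and to 234 and 153 in CX3CR1bright cells, and their part in the neuropilin levels was not tested. Of these, Pecam1, Cdh5 and Vwf lay above the median on all 4 arrays and Tek, Emcn and Prox1 on none. Cdh5 stood at 6.10 and 7.09 in CX3CR1low and at 5.71 and 4.07 in CX3CR1bright cells, the direction of the neuropilins. Cldn5 had the opposite direction without overlap, at 3.50 and 3.89 in CX3CR1low and at 4.96 and 4.16 in CX3CR1bright cells. Pecam1, Flt4, Vwf and Kdr differed by 0.22, 0.15, -0.029 and -0.13, with overlap.

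**Figure D4:**
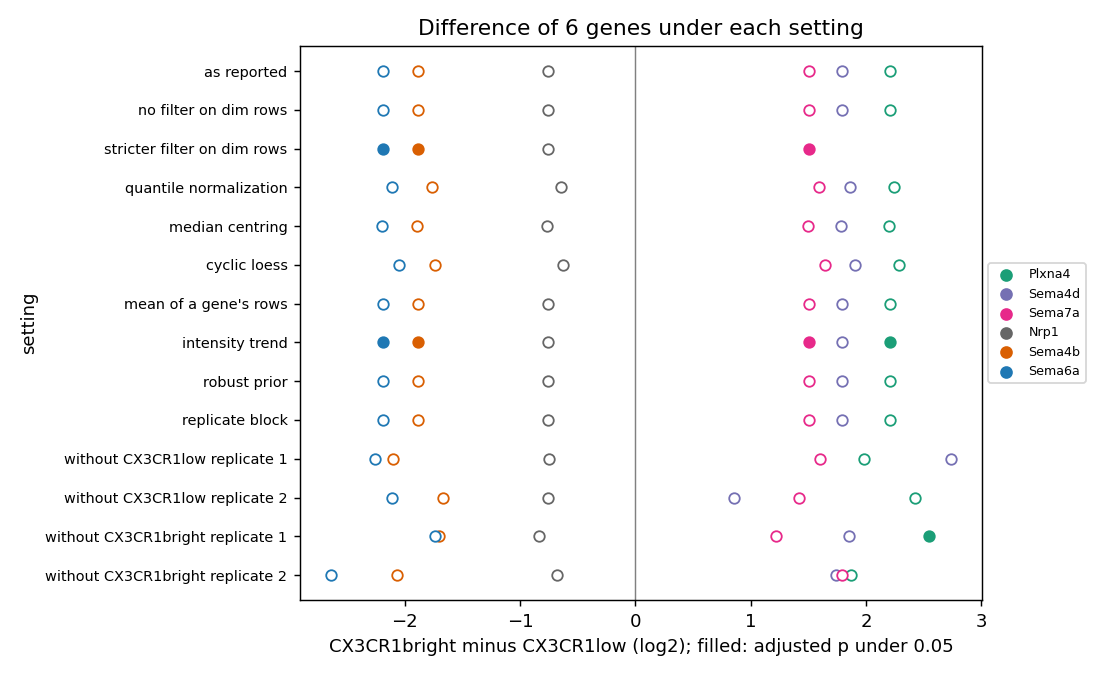
Difference between the subsets (log2) of 6 genes as reported and under each of 13 alternatives; filled points have an adjusted p under 0.05 (limma) and open points do not. All 6 keep their sign wherever a value was given (Plxna4 and Sema4d have none with the stricter filter), and Sema4d spreads most, from 0.86 to 2.74.

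The pathway around the receptors was described with a list of 59 co-receptors, mediators and further neuropilin ligands, of which 49 were tested; Cd72, Pak1, Rap1a and Rhod were not analysed here. None passed the adjusted threshold (limma), beside 0.137% of all tested genes, while 11 (22.4%, beside 18.8% of all tested genes) had an unadjusted p under 0.05, 4 of them higher and 7 lower in CX3CR1bright cells. The median difference was 0.0088, against -0.070 over all tested genes.

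Itgav, the integrin alpha chain that pairs with beta chains in matrix adhesion, stood at 8.46 and 8.38 in CX3CR1low and at 9.50 and 10.02 in CX3CR1bright cells. Its difference was 1.34 ± 0.24 (SE, n = 2 per subset; limma, adjusted p = 0.0978), or 0.75 when averaged with a dim second row of the gene. Sdc3, a heparan sulfate proteoglycan, stood at 10.73 and 10.53 in CX3CR1low and at 9.92 and 9.62 in CX3CR1bright cells, a difference of -0.86 ± 0.21 (SE, n = 2 per subset; limma, adjusted p = 0.140). Of the other receptors and co-receptors listed, Erbb2 and Cspg4 differed by 0.76 ± 0.36 and 0.60 ± 0.26 (SE, n = 2 per subset), without overlap. Their adjusted p was 0.331 and 0.294 (limma). Mst1r, Flt1, L1cam and Itga1 differed by 1.04, 0.58, 0.50 and 0.44, with overlap. The genes named by rule differed by less than their SE: Trem2 by -0.13, its adaptor Tyrobp by -0.11, Itgb1 by -0.043, Kdr by -0.13 and Met by -0.11. These signs are not settled, since after cyclic loess Trem2, Itgb1 and Met stood at 0.012, 0.091 and 0.017 and after quantile normalization Tyrobp stood at 0.028.

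Downstream of the plexins, Rras, a GTPase that plexins inactivate, had the smallest p. It stood at 9.57 and 9.45 in CX3CR1low and at 8.47 and 8.40 in CX3CR1bright cells, with replicates within 0.12 of each other. The difference was -1.08 ± 0.18 (SE, n = 2 per subset; limma, adjusted p = 0.0931). It passed with a stricter filter (adjusted p = 0.0455, limma) and under an intensity trend (adjusted p = 0.0262, limma), out of 0.0262 to 0.490 over 13 alternatives.

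The Rnd GTPases, which bind plexins directly, did not share a direction. Rnd2 stood at 5.77 and 5.74 in CX3CR1low and at 4.92 and 4.72 in CX3CR1bright cells, a difference of -0.94 ± 0.19 (SE, n = 2 per subset; limma, adjusted p = 0.109). Rnd1 stood at 4.47 and 4.27 against 4.95 and 5.18, a difference of 0.70 ± 0.20 (SE, n = 2 per subset; limma, adjusted p = 0.176). Limk1, the kinase that inactivates cofilin, stood at 6.98 and 7.28 in CX3CR1low and at 6.35 and 6.15 in CX3CR1bright cells, a difference of -0.88 ± 0.21 (SE, n = 2 per subset; limma, adjusted p = 0.137). The VEGF genes that also signal through neuropilins went both ways, at -0.65 for Vegfb and 0.49 for Pgf, each without overlap, and at 0.063 for Vegfa and 0.18 for Vegfc, whose groups overlapped.

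**Figure D5:**
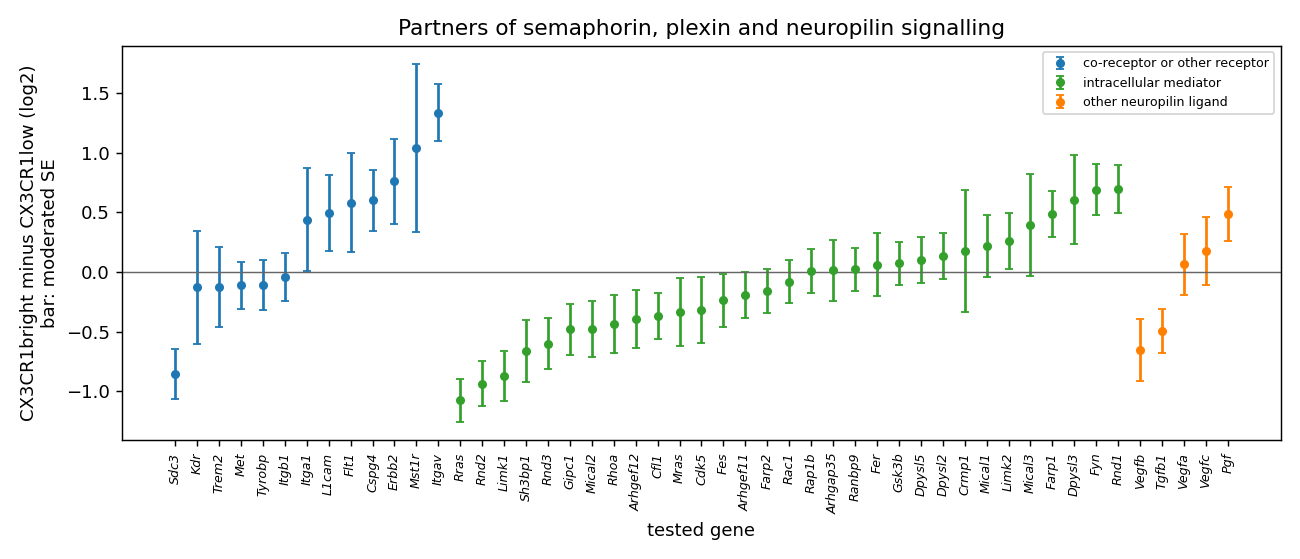
Difference between the subsets (log2, CX3CR1bright minus CX3CR1low) of the 49 tested partner genes, with the moderated SE as bars, in 3 groups by role. Itgav at 1.34 and Rras at -1.08 lie outermost among genes without overlap.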

How the data were processed

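RNA was labelled with an amplifying kit for small samples, per the labels' protocols. The deposited log2 values were made by the authors with RMA, run in Affymetrix Expression Console 1.4 according to the submitters' processing notes. Detection calls and probe intensities were not used here, and a genome build was used only for the windows before gene starts. Of 34390 rows, 23521 carried 1 gene symbol, and each gene kept its row of highest mean level; 2 members had 2 rows. A gene was tested with at least 2 arrays above their own median (13133 genes, 26 members). Subsets were compared on the whole table in R 4.3.3 by limma 3.58.1 (functions lmFit and eBayes, two-sided, Benjamini-Hochberg over all tested genes, threshold 0.05), with 2 residual and 3.28 prior degrees of freedom; the procedure was tested on simulated data. With 2 pools per subset, p-values rest on the spread between pools, moderated toward that of all tested genes, and the number of arrays limits the precision. All members are named; full values are given for tested members at least 1 apart on the log2 scale or with an unadjusted p under 0.05, and for some others. Of the partners, the 6 with the smallest p and Trem2, Tyrobp, Itgb1, Kdr and Met were named by rule; Cd72 was not analysed here, and the remaining partner names were added after their values were seen, as was the GC box among the motifs. The members and lists were chosen with earlier results of these data known. Alternatives were other filters (none, or all 4 arrays above the 60th percentile), quantile, median and cyclic loess scaling, the mean of a gene's rows, an intensity trend, a robust prior, the replicate number as a block and each array left out.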

Additional observations from a re-analysis of the deposited data

How the results depend on the processing

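The count of members past the adjusted threshold (limma) was 0 as reported, 3 with a stricter filter (2.41% of all genes) and 4 under an intensity trend (2.35%). It was 0 in the other alternatives that kept all 4 arrays. At an unadjusted p under 0.05 (limma) it was 10 as reported, beside 18.8% of all tested genes. Members at least 2-fold apart without overlap numbered 5, but 7 with no filter on dim rows (3.66% of all genes). They numbered 3 with a stricter filter (5.64%), which drops Plxna4 and Sema4d. Members above the line on all arrays numbered 20 at the median and 12 at the 75th percentile. Partners past the threshold numbered 0, or 1 with a stricter filter (2.41% of all genes) and 2 under an intensity trend (2.35%). Of the 26 tested members 20 kept their sign in every alternative that gave a value; for the other 6 the sign turned only with 1 array left out, over ranges of -0.38 to 0.85 (Sema3b), -0.65 to 0.21 (Sema3f), -0.74 to 0.042 (Sema3g), -0.60 to 0.85 (Sema4c), -0.12 to 0.48 (Sema5b) and -0.32 to 0.26 (Plxna3). Partner ranges with 1 array left out were -0.53 to 0.28 (Trem2), -0.29 to 0.067 (Tyrobp), -0.16 to 0.080 (Itgb1) and -0.80 to 0.54 (Kdr); after quantile normalization Trem2, Tyrobp and Itgb1 stood at 0.00030, 0.028 and 0.062, and after cyclic loess Trem2, Itgb1 and Met at 0.012, 0.091 and 0.017. The causes were not tested. With the replicate block, 0 members passed (limma) and 0 of 13133 genes did, against 18 without it. At an unadjusted p under 0.05 (limma) 10 members differed with the block, beside 20.1% of all tested genes. Deviations of same-numbered arrays correlated at 0.155 over genes, from a single pair of numbers that the labels do not tie to a litter. The difference of Cx3cr1 lost its call with the block (adjusted p = 0.129, limma) and without any of 3 arrays, at 4.80 to 4.83. Levels near the array medians limit what can be said of dim semaphorins.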
